A study of Homo sapiens with 12 samples.

Results

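In HT-29 cells given a necroptosis-inducing treatment, 143 genes had a low level relative to the control, and inhibition of the RIPK1 kinase left them short of the control level. They were chosen from the authors' group means by 3 conditions: a mean of at least 50 normalized reads in DMSO, a TSZ mean at most 0.5 times the DMSO mean, and a TSZ+Nec-1s mean at most 0.65 times the DMSO mean. Genes whose symbol begins with ZNF, and WNT11, were left out, which removed 7 ZNF genes and WNT11 that met the means. The 143 members stand among 26485 genes listed, of which 9894 had a DMSO mean of at least 50. Of these, 750 had a TSZ mean at most 0.5 times DMSO. Without the ZNF genes and WNT11, 556 of the 750 had a TSZ+Nec-1s mean above 0.65 times DMSO, and these are called the restored falls below, by that rule alone.

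HT-29 is an established line of human colon adenocarcinoma cells. All treatments lasted 8 h. The first group received the solvent DMSO and the next received 10 ng/ml TNFα. TSZ joined this dose of TNFα to 50 nM of SM-164 and 20 μM of zVAD, and TSZ+Nec-1s added 10 μM of Nec-1s to all 3. Every group other than DMSO thus held TNFα. PolyA RNA was sequenced in 3 libraries per group, 12 in all. Nothing in the sources used here tells whether these 3 were separate cultures, and each p-value therefore rests on a spread between libraries that may be purely technical. In a necroptotic culture, fewer cells and less RNA per cell cannot be told apart, and all levels are relative to the other RNAs of the same library.

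TNFα binds its receptor and assembles a signalling complex around RIPK1. Smac mimetics such as SM-164 remove the IAP ubiquitin ligases that restrain RIPK1, and zVAD blocks the caspases that would turn the signal to apoptosis. RIPK1 then acts through its kinase activity on RIPK3, which phosphorylates MLKL, and MLKL opens the plasma membrane. Nec-1s inhibits the RIPK1 kinase and so blocks this death, while the receptor signalling of TNFα that needs no kinase activity of RIPK1 can go on.

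Levels are normalized reads: the reads of a gene in a library divided by that library's size factor. The deposited tables give only group means, from which the reads of each library were recovered, and the 3 libraries of a group are called a, b and c by the size of their scaling step, with no tie between groups. Estimated depth was 8842436 to 12730029 reads per library. In DMSO library b the deviation of genes from their group's mean level fell with the GC content of the transcript (Spearman rank correlation -0.808 across 11460 genes, which are not independent replicates), whereas it rose in DMSO libraries a and c (0.783 and 0.542). TNFα library c and TSZ library c had values of -0.608 and -0.751. Of 13 colon epithelium markers, 8 had a DMSO mean of at least 50. The 11 whose reads were solved summed to 20836 to 42048 normalized reads per library. The authors' DMSO means of all 13 summed to 143168, so most of the level lay in the unsolved markers. CDX1 was at 0 in DMSO and TSZ+Nec-1s, and CDH17 was at 0 in TSZ+Nec-1s. Among 8 leukocyte markers, PTPRC and CD3E were at 0 in every group, but the 8 summed to 14693 to 21184 normalized reads per library. CSF1R and ITGAX were also at 0 in DMSO. Only 3 of the 8 had a DMSO mean of at least 50. CD14 was one of these, at 80.8, so nearly all of the DMSO sum lay in the others of the 3. Cell identity was not tested with these sums.

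DMSO library b touched 8 members directly. In FGF9, SLC16A7, IQGAP2, SLC40A1, LMBRD2, SLITRK6, C18orf54 and BRIP1 it was more than 1.5 times the next DMSO library, and the median GC content of their transcripts was 37.5%, against 51.0% for the 141 members with an annotated transcript. Without library b, 3 of the 8 still met the rule (FGF9, IQGAP2 and SLC40A1), and 5 did not. SLITRK6 then stood at 82.1% of DMSO with TSZ+Nec-1s in place of 58.4%, and BRIP1 at 94.5% in place of 63.3%. Over all members, 123 of the 143 met the rule without DMSO library b, 121 without library a and 122 without library c. The values of the 5 genes are given below as they stand, with this limit.

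The level of the members spanned a wide range, from 51.7 normalized reads in DMSO for ELF5 to 3313 for ADGRG1, with a median of 177. As chosen, their median level was 34.3% of DMSO with TSZ (6.41% to 49.996%) and 55.6% with TSZ+Nec-1s (20.9% to 64.8%). These values set the membership, so the limma calls for them are given as a description only: 141 members were lower with TSZ (24.2% of all genes tested) and 129 with TSZ+Nec-1s (5.74%), and the libraries lay wholly below DMSO in 140 (25.1%) and 135 (15.2%). Over the 11725 tested genes with reads in DMSO, the medians were 98.2% and 99.4%. With TNFα alone, whose libraries the rule did not use, the median member was at 67.3% of DMSO (22.8% to 91.0%). Every member had a TNFα mean below its DMSO mean. The rule used that DMSO mean and favours genes high in it, which by itself lowers these percentages. The median of the tested genes was 99.2% and that of the restored falls was 88.9%.

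**Figure D1:**
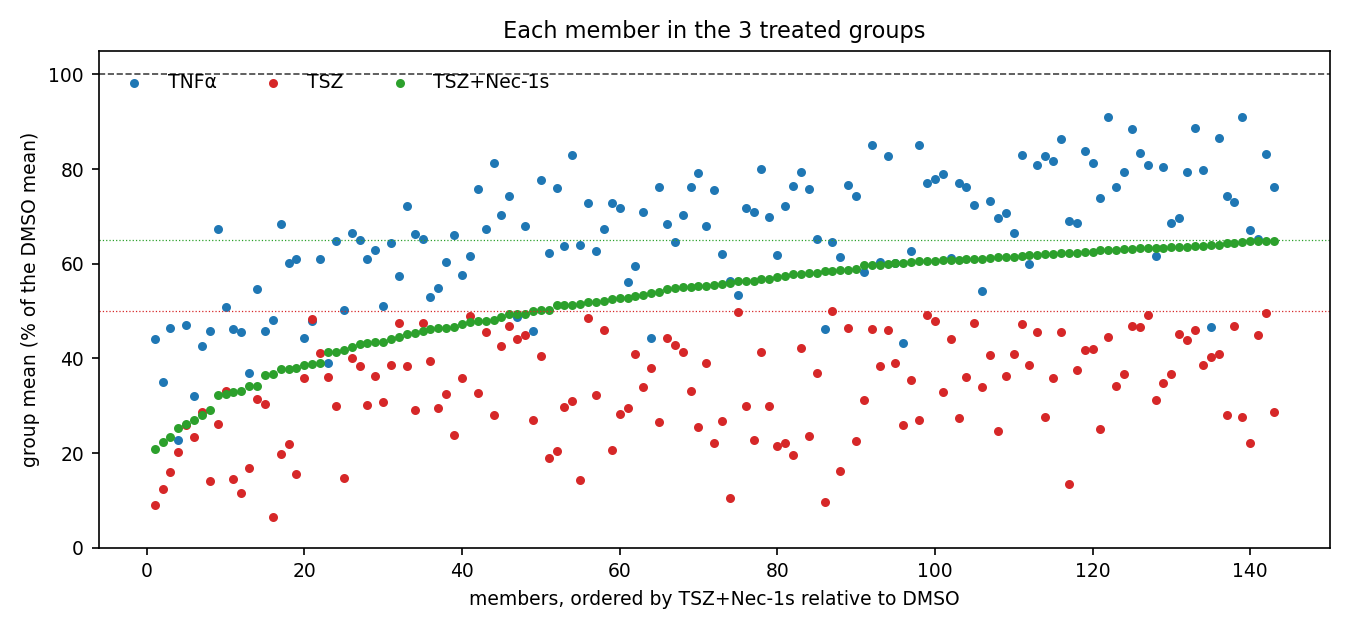
Group mean of each of the 143 members as a percentage of its DMSO mean (vertical axis), for TNFα (blue), TSZ (red) and TSZ+Nec-1s (green), with members ordered by TSZ+Nec-1s on the horizontal axis. The dotted lines mark the limits of the rule at 50% for TSZ and 65% for TSZ+Nec-1s, and the dashed line is DMSO. All blue points lie between 22.8% and 91.0%. The rule did not use the TNFα means, but it used the DMSO means by which they are divided.

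TNFα alone was the comparison that the choice of genes left to be tested, and it answers whether the members are also lower without SM-164 and zVAD. In limma, 51 of the 143 members (35.7%) passed as lower with TNFα at an adjusted p under 0.05, where 1.08% of all 11732 genes tested did so and 1.14% of those with a DMSO mean of at least 50. No member was higher, where 3.12% of all genes were. At an unadjusted p under 0.05, 115 members were lower and 0 higher, beside 5.86% and 9.21% of all genes. The median fitted log2 fold change of the members was -0.55, against 0.00 over all genes tested and -0.16 for the restored falls. The rule used the DMSO libraries of this comparison and favours genes that are high in them, which by itself moves the members downwards here.

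The rule was also applied with 1 DMSO library left out, and TNFα was read against that library alone, a step added after the data were examined. The genes chosen in this way are not the same set as the members. With library a, b or c left out, 121, 123 or 122 of them were members. With library a left out, 168 genes met the rule and 149 of them (88.7%) had a TNFα mean below library a, beside 45.7% of all genes at or above the same DMSO level. With library b left out, 138 of 186 genes (74.2%) were below it, beside 44.9%. With library c left out, 132 of 138 genes (95.7%) were below it, beside 47.0%. The median TNFα level was 71.7%, 83.7% and 68.5% of the library left out, and 101.9%, 105.03% and 101.0% over all genes of that level. The genes chosen by the other 2 control libraries were thus mostly lower with TNFα than in the third, least so against library b. These shares are descriptions with no test, and they count genes, which are not independent replicates. DMSO libraries a and c had GC trends of the same direction, so either of them left out may still resemble the pair that chose.

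The number of calls depended on the setting. It was 107 of 143 when the GC trend of each library was removed, where 5.15% of all genes were called lower, and 15 of 143 when the fit held only the DMSO and TNFα libraries (0.223% of all genes). Leaving out DMSO library c gave 24 (0.418% of all genes), and leaving out TNFα library a, b or c gave 27, 22 or 25 (0.443%, 0.349% and 0.443%). Leaving out DMSO library b gave 63 (1.84%). The TNFα libraries were all below the DMSO libraries in 110 members (76.9%), beside 7.19% of all genes.

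**Figure D2:**
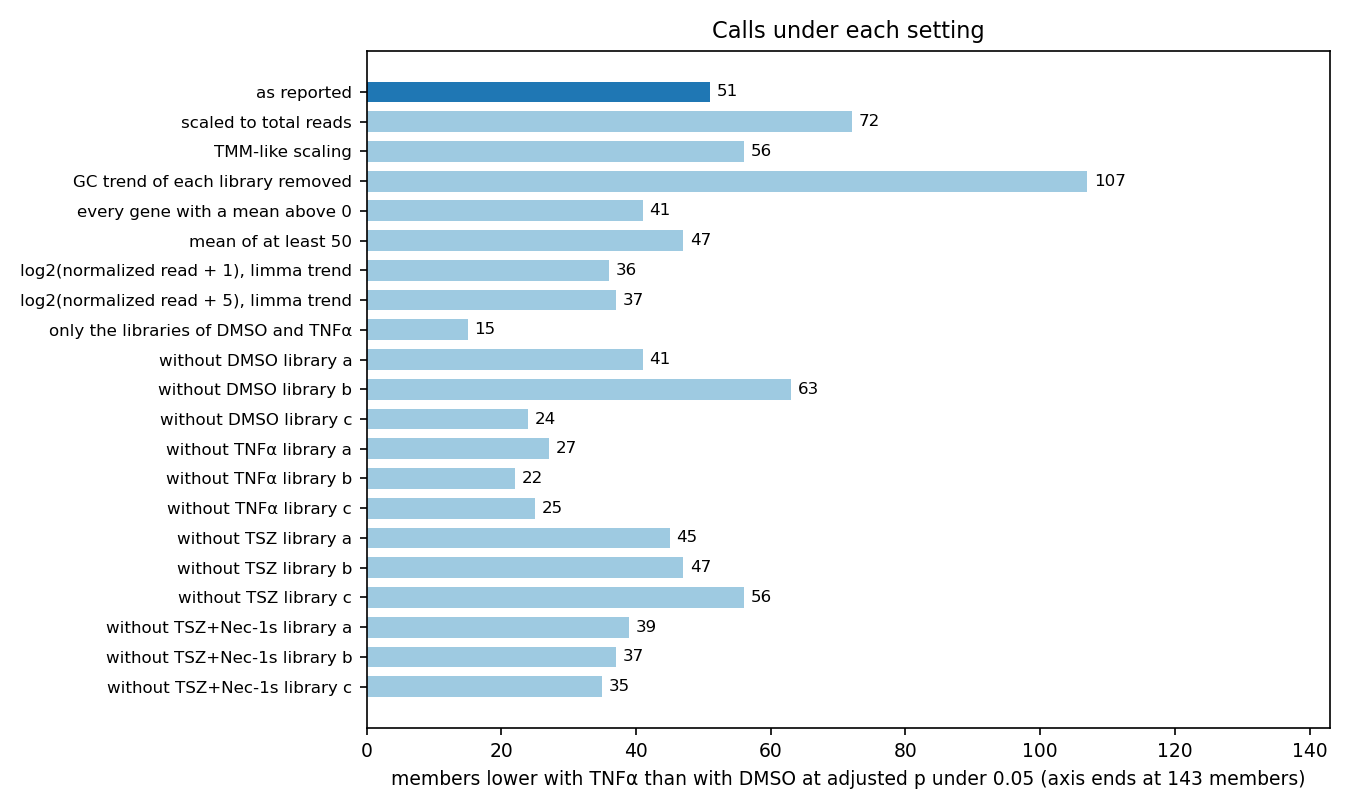
Number of members called lower with TNFα, by an adjusted p under 0.05 (horizontal axis, which ends at the 143 members) in the fit as reported and under each alternative (vertical axis). The dark bar is the reported count of 51, and the counts run from 15 with only the DMSO and TNFα libraries to 107 with the GC trend removed.

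The promoters of the members were read from RefSeq on GRCh38.p14, as the 250 bases before and 50 after the start nearest to that of the annotated main transcript. They were found for 119 of 143 members and for 8033 of the 9862 tested genes with a DMSO mean of at least 50. Fewer than 5 CG dinucleotides stood in 12 of the 119 member promoters (10.1%) and in 2.60% of the 8033, although the median GC content was 66.7% in both. In 8 members the RefSeq start lay more than 1000 bases from the main one, and without such genes the numbers were 9 of 111 members (8.11%) and 157 of 7849 genes. Of the 12, 6 were called lower with TNFα, beside 35.7% of all members. Among the 9, CLRN3, COLCA1, PLA2G4F and SPINK5 were called, and FAM63A, FLRT3, KLHL3, SLITRK6 and TNS2 were not. The 250 bases before the start of the 4 called genes are shown, with CG in capitals, to let the scarcity of these dinucleotides be seen. They lie at chr11:111305049-111305298, minus strand for COLCA1, chr5:148063730-148063979, plus strand for SPINK5, chr10:127892942-127893191, minus strand for CLRN3 and chr15:42156637-42156886, minus strand for PLA2G4F.
COLCA1: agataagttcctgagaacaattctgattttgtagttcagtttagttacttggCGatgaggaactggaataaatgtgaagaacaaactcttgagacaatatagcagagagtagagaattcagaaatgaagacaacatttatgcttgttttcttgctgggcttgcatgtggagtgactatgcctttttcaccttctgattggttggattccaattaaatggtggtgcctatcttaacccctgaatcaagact
SPINK5: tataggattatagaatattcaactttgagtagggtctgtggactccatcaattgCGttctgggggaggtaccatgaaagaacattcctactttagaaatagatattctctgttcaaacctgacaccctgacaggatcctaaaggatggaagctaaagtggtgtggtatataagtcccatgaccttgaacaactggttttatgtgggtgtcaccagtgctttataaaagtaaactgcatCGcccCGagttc
CLRN3: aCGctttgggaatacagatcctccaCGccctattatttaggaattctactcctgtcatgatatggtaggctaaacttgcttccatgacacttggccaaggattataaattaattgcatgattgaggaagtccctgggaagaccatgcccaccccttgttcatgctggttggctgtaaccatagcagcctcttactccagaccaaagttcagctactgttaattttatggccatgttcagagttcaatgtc
PLA2G4F: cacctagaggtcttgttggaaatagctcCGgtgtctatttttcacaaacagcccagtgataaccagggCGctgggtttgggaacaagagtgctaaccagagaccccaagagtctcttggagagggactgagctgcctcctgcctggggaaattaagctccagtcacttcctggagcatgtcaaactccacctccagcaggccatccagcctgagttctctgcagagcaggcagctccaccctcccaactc

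Short motifs were searched on both strands in the same windows, and no motif contained another. The ETS motif CCGGAAG stood in 7 of 119 member promoters (5.88%) and in 22.6% of the 8033. The CCAAT box (CCAAT) stood in 38 (31.9%) against 37.7%, the SP1 motif GGGCGG in 78 (65.5%) against 75.7%, and the E-box CACGTG in 9 (7.56%) against 10.8%. The AP-1 motif TGANTCA stood in 8 (6.72%) against 3.996% and the NF-κB motif, GGGA and TTCC with any 2 bases between, in 1, that of ARPIN (0.840%), against 1.51%. The GATA motif AGATAA was in 3 (2.52%) against 3.66%, the TATA box TATAAA in 6 (5.04%) against 4.41%, the CRE motif TGACGTCA in 1 (0.840%) against 3.77%, and the TCF motif CTTTGAT and the HNF4 motif CAAAGTCCA in 0 against 1.28% and 0.212%. The E2F motif TTTCCCGC was in 3 (2.52%, CDCA7, SERTAD4 and SLC44A3) against 3.05% and TTTGGCGC in 2 (1.68%, E2F2 and GINS1) against 1.26%. A match is only a run of letters, and these shares carry no test. The E2F2 and CDCA7 windows before the start, at chr1:23531234-23531483, minus strand and chr2:173354622-173354871, plus strand, are shown for the cell cycle members, with the E2F motif in capitals at 42 and 65 bases before the start. The second is on the other strand and so reads as its reverse complement.
E2F2: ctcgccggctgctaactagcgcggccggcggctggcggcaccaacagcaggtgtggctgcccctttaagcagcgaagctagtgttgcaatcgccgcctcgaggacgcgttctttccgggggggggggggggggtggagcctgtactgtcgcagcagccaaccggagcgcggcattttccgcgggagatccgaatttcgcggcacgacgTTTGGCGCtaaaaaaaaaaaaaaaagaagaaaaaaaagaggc
CDCA7: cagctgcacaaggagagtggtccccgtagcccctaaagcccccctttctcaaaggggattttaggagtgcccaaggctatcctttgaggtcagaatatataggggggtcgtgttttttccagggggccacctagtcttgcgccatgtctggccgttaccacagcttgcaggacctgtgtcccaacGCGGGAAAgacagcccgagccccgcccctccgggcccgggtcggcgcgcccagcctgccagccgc

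Secreted ligands, antagonists and matrix proteins were the role group with the lowest median levels relative to DMSO. Its 7 members stood at a median of 16.9% of DMSO with TSZ, 34.2% with TSZ+Nec-1s and 45.6% with TNFα, and 6 of the 7 were called lower with TNFα. The share called was 35.7% over all members and 1.08% over all genes, beside which this and the later role group counts stand. The groups are small and were set with earlier results known, and differences between them were not tested. BDNF, a neurotrophin that signals through the receptor TrkB, was measured at 112, 119 and 145 in DMSO, 38.3, 45.0 and 48.1 with TNFα, 12.4, 15.5 and 18.9 with TSZ and 21.7, 28.5 and 34.2 with TSZ+Nec-1s. The libraries of the 4 groups did not overlap for BDNF, and Nec-1s left it at 22.4% of DMSO. Its log2 fold change with TNFα was -1.50 (SE 0.19, adjusted p = 0.00035). Adjusted p here and below is limma's, and "log2" in parentheses is the fitted log2 fold change of TNFα against DMSO.

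SPINK5, also among the printed promoters, encodes a secreted inhibitor of serine proteases. It was at 49.5, 63.1 and 66.3 in DMSO, 15.4, 16.8 and 25.02 with TNFα, 10.7, 14.7 and 16.6 with TSZ and 11.1, 17.4 and 19.8 with TSZ+Nec-1s. Its 3 treated groups overlapped one another and lay below DMSO, so that the level with TNFα alone was already close to that with TSZ. The log2 fold change with TNFα was -1.64 (SE 0.26, adjusted p = 0.0022). SOSTDC1, a secreted antagonist of BMP and WNT ligands, had values of 177, 183 and 219.7 in DMSO, 71.1, 96.2 and 97.2 with TNFα, 14.3, 19.2 and 33.3 with TSZ and 53.8, 63.4 and 75.5 with TSZ+Nec-1s, and its groups were apart except for TNFα and TSZ+Nec-1s. FGF9, a fibroblast growth factor, was at 51.3, 63.9 and 98.8 in DMSO and 25.2, 26.0 and 27.9 with TNFα. Its fall with TNFα was -1.36 (SE 0.31, adjusted p = 0.026) on the log2 scale and stood at -1.12 (adjusted p = 0.040) without DMSO library b.

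ADAMTS6, a secreted metalloprotease, and LOXL1, which cross-links elastin, were lower with TNFα as well, with log2 fold changes of -0.99 (SE 0.16, adjusted p = 0.0021) and -1.02 (SE 0.19, adjusted p = 0.0074). LOXL1 was at 81.3, 88.5 and 95.1 with TNFα, 59.8, 73.2 and 106 with TSZ and 81.5, 92.9 and 94.1 with TSZ+Nec-1s, 3 sets of values that overlapped. SEMA4G, a semaphorin, was the member of the group that did not pass, with -0.43 (SE 0.12, adjusted p = 0.071) on the log2 scale. The summed level of 9 fibroblast and endothelium markers was 53.4 to 203 normalized reads per library in DMSO, 50.5 to 63.1 with TNFα, 222 to 507 with TSZ and 42.7 to 61.6 with TSZ+Nec-1s, with PDGFRB, DCN, CDH5 and VWF at 0 with TNFα, and its part in these values was not tested.

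The enzymes of phospholipid, sphingolipid and inositol signalling were 8 members, of which 5 were called lower with TNFα. Their medians were 29.5% with TSZ, 44.02% with TSZ+Nec-1s and 63.7% with TNFα. PLA2G4F, a cytosolic phospholipase A2, was at 47.3, 60.3 and 68.4 in DMSO, 25.02, 28.9 and 29.0 with TNFα, 14.7, 15.5 and 15.5 with TSZ and 12.1, 16.5 and 17.4 with TSZ+Nec-1s. TSZ and TSZ+Nec-1s gave overlapping values for it, at 25.9% and 26.1% of DMSO, and TNFα lay between these and DMSO (log2 -1.06, SE 0.21, adjusted p = 0.0091). DEGS2, which makes phytoceramides, behaved alike in its means, with 33.1% of DMSO with TSZ, 32.4% with TSZ+Nec-1s and 50.9% with TNFα (called in 10 of the 20 alternative settings).

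PLD1, which hydrolyses phosphatidylcholine to phosphatidic acid, was at 174, 222 and 281 in DMSO, 75.1, 75.1 and 114 with TNFα, 72.6, 79.0 and 93.2 with TSZ and 78.1, 94.9 and 107 with TSZ+Nec-1s. TNFα alone brought it to 39.0% of DMSO, and its 3 treated groups overlapped. The log2 fold change with TNFα was -1.35 (SE 0.21, adjusted p = 0.002). PIK3C2B, a class II phosphoinositide 3-kinase, was at 66.2% of DMSO with TNFα (log2 -0.60, SE 0.10, adjusted p = 0.0036) and the phospholipase C PLCE1 at 61.2% (log2 -0.70, SE 0.16, adjusted p = 0.025). The phospholipase C PLCH1, the lipin LPIN3 and the inositol trisphosphate kinase ITPKB were at 68.4%, 76.2% and 75.9% and did not pass the test.

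Channels, junction proteins and transporters held the member with the lowest TSZ level relative to DMSO. KCNE3, the accessory subunit that keeps the potassium channel KCNQ1 open in colonic crypt cells, was at 336, 339 and 423 in DMSO, 154, 183 and 191 with TNFα, 19.04, 20.3 and 31.1 with TSZ and 122, 129.7 and 151.9 with TSZ+Nec-1s. TSZ left 6.41% of the DMSO level. TSZ+Nec-1s was 5.72 times TSZ and still at 36.7% of DMSO, and TNFα was at 48.0% (log2 -1.06, SE 0.15, adjusted p = 0.00075). The 4 groups did not overlap. Of the 9 members of this group, 5 were called lower with TNFα.

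SLC40A1, the iron exporter ferroportin, was at 299, 348 and 565 in DMSO and 157, 193 and 205 with TNFα, a log2 fold change of -1.08 (SE 0.21, adjusted p = 0.0089). Its highest DMSO value was library b, and without it the change was -0.82 (adjusted p = 0.0026). GJB1, the gap junction protein connexin 32, was at 291, 434 and 454 in DMSO and 199, 199.95 and 203 with TNFα (log2 -0.94, SE 0.17, adjusted p = 0.0065). STEAP4, a metalloreductase of iron and copper, had values of 82.3, 82.8 and 124 in DMSO, 35.6, 46.7 and 56.0 with TNFα, 33.3, 44.4 and 62.1 with TSZ and 30.2, 39.5 and 42.5 with TSZ+Nec-1s. It had the lowest ratio of TSZ+Nec-1s to TSZ means (0.803), and its treated groups overlapped. It was lower with TNFα (log2 -1.05, SE 0.25, adjusted p = 0.033), and so was SLC44A3, a choline transporter-like protein (log2 -0.63, SE 0.14, adjusted p = 0.023). SLC16A7, a monocarboxylate transporter, and SLC27A3, of the fatty acid transport protein family, were at 44.3% and 68.6% of DMSO and did not pass. Of 173 solute carriers with a DMSO mean of at least 50, these 4 were members (2.31%). Over all genes of that DMSO level the share of members was 1.45%, beside which this and the later list shares stand.

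Among 15 receptors and other surface proteins, F2R, EPHB3 and FGFR3 were called lower with TNFα. F2R, the thrombin receptor PAR1, was at 434, 464 and 562 in DMSO, 192, 211 and 219 with TNFα, 121, 136 and 163 with TSZ and 118, 145 and 147 with TSZ+Nec-1s. The values with TSZ and TSZ+Nec-1s overlapped and their means were 28.8% and 28.1% of DMSO. Its log2 fold change with TNFα was -1.22 (SE 0.14, adjusted p = 0.00014). EPHB3, an ephrin receptor and WNT target of intestinal crypts, was at 54.3% of DMSO with TNFα (log2 -0.86, SE 0.19, adjusted p = 0.02), and FGFR3, a receptor of fibroblast growth factors, at 68.1% (log2 -0.55, SE 0.12, adjusted p = 0.019). ROR1, a receptor of WNT5A, was at 68.0% and did not pass (adjusted p = 0.058). These 3 kinases were members out of 39 receptor tyrosine kinases and adaptors with a DMSO mean of at least 50 (7.69%).

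CD14, the coreceptor of lipopolysaccharide, was at 72.5, 84.4 and 85.5 in DMSO, 38.0, 52.3 and 57.7 with TNFα, 9.98, 12.4 and 15.5 with TSZ and 22.6, 32.2 and 37.2 with TSZ+Nec-1s. It did not pass the test with TNFα (log2 -0.72, SE 0.21, adjusted p = 0.076). CD14 is also 1 of 8 leukocyte markers, of which PTPRC and CD3E were at 0 in every group. The summed level of the 8 was 15033 to 15345 normalized reads per library in DMSO, 14693 to 15858 with TNFα, 19770 to 21184 with TSZ and 15139 to 15930 with TSZ+Nec-1s. ADGRG1, an adhesion G protein-coupled receptor, had the highest level of all members, at 2735, 3539 and 3664 in DMSO and 2005, 2012 and 2012 with TSZ+Nec-1s, and was at 78.0% with TNFα (log2 -0.35, SE 0.11, adjusted p = 0.11). CELSR2, an atypical cadherin, was at 44.1% of DMSO with TSZ+Nec-1s and 64.3% with TNFα (log2 -0.64, SE 0.21, adjusted p = 0.13). SLITRK6, a transmembrane protein with leucine-rich repeats, had the highest ratio of TSZ+Nec-1s to TSZ, 6.10, with 238, 312 and 609.6 in DMSO, 141, 148 and 246 with TNFα, 23.7, 30.9 and 56.6 with TSZ and 188, 241 and 249 with TSZ+Nec-1s. Its DMSO libraries spread widely, with library b the highest, and its TNFα value did not pass (log2 -1.04, SE 0.32, adjusted p = 0.1).

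Transcription factors and chromatin regulators were 19 members, 5 of which were called lower with TNFα. LMO4, a LIM-only adaptor of transcription complexes, was at 2432, 2443 and 2624 in DMSO, 1616, 1647 and 1723 with TNFα, 968, 1031 and 1069 with TSZ and 1449.8, 1499.95 and 1662 with TSZ+Nec-1s. Its 4 groups did not overlap except for TNFα and TSZ+Nec-1s, and the log2 fold change with TNFα was -0.59 (SE 0.08, adjusted p = 0.00092). GATA2, a zinc finger factor known from blood stem cells, was at 35.8%, 47.3% and 57.7% of DMSO with TSZ, TSZ+Nec-1s and TNFα (log2 -0.78, SE 0.13, adjusted p = 0.0036 for TNFα). The spans of GATA2 and the antisense gene GATA2-AS1 overlap by 3990 bases. Reads were counted without regard to strand, so reads lying in exons of both genes may have been left uncounted. SMARCA2, the ATPase of a chromatin remodelling complex, fell with TNFα as well (log2 -0.54, SE 0.13, adjusted p = 0.028), as did TSHZ1 (log2 -0.70, SE 0.17, adjusted p = 0.032) and TRERF1 (log2 -0.60, SE 0.15, adjusted p = 0.043), both zinc finger factors. TRERF1 was called in 6 and TSHZ1 in 10 of the 20 alternative settings.

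The members of the homeobox, forkhead and SOX list did not pass with TNFα. MEIS2, a cofactor of HOX proteins, was at 69.8% of DMSO (log2 -0.52, SE 0.15, adjusted p = 0.085), HOXB8 at 73.2%, HOXC6 at 79.4% and HOXC4 at 75.8%. They made 4 of the 42 genes of this list with a DMSO mean of at least 50 (9.52%). The list is not complete and does not hold the member DMBX1, given below. Of the whole list, 20 of 53 tested genes were lower and 15 higher with TSZ, and 11 were lower and 8 higher with TSZ+Nec-1s. HOXC6 and HOXC4 lie on chromosome 12 and overlap by 13893 bases on the same strand, so that reads lying in exons of both may have been left uncounted. DMBX1, a paired-type homeobox factor, had the lowest TSZ+Nec-1s level of the factors, 32.3% of DMSO, with 66.2, 76.96 and 77.4 in DMSO and 38.3, 46.2 and 64.1 with TNFα (log2 -0.60, SE 0.23, adjusted p = 0.22). CBX7 of Polycomb complexes and the DNA methyltransferase DNMT3A were at 77.8% and 83.3% with TNFα, and with SMARCA2 they were the 3 members among 92 chromatin modifiers of that DMSO level (3.26%). The epithelial factor ELF5 and the zinc finger genes ZMYM3, ZHX3 and ZKSCAN4 were between 58.2% and 79.3% of DMSO with TNFα and did not pass.

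The 10 cell cycle, replication and DNA repair members stood at a median of 29.0% of DMSO with TSZ, 62.2% with TSZ+Nec-1s and 74.2% with TNFα, and 5 were called lower with TNFα. CDKN2C, the CDK inhibitor p18, was at 122, 128 and 139.8 in DMSO, 62.6, 74.1 and 83.2 with TNFα, 9.98, 15.5 and 15.8 with TSZ and 66.4, 75.5 and 75.9 with TSZ+Nec-1s. TSZ+Nec-1s was 5.28 times TSZ, and its values overlapped those of TNFα, which was at 56.4% of DMSO (log2 -0.83, SE 0.16, adjusted p = 0.0076). SKP2, the F-box protein that marks CDK inhibitors for degradation, was at 874, 875 and 1166 in DMSO, 212, 234 and 274 with TSZ and 592, 596 and 602 with TSZ+Nec-1s. Its log2 fold change with TNFα was -0.51 (SE 0.12, adjusted p = 0.036), a call made in 8 of the 20 alternative settings.

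E2F8, a repressor of the E2F family, was at 72.2% of DMSO with TNFα (log2 -0.48, SE 0.12, adjusted p = 0.042, called in 9 of the 20 settings), while the activator E2F2, at 76.5%, did not pass (log2 -0.38, SE 0.16, adjusted p = 0.28). GINS1, a subunit of the replicative helicase, had narrow groups, 721, 739 and 756 in DMSO, 538, 573 and 579 with TNFα, 245, 256 and 258 with TSZ and 462, 462 and 472 with TSZ+Nec-1s, with -0.39 (SE 0.08, adjusted p = 0.015) for TNFα. CDCA7, the partner of the chromatin remodeller HELLS, was at 69.7% (log2 -0.52, SE 0.11, adjusted p = 0.017). Of 54 genes of the cell cycle list with a DMSO mean of at least 50, 3 were members (5.56%), namely E2F8, CDKN2C and E2F2. That list does not hold every member of the role group, such as SKP2. Of the 55 tested, 33 were lower and 9 higher with TSZ, 7 lower and 6 higher with TSZ+Nec-1s, and 3 lower and 3 higher with TNFα. None of the 77 genes of that level in the DNA repair and checkpoint list was a member, which can occur at the share of 1.45%. This list does not hold BRIP1 and EXD2, which are members of the present role group. Of its 81 tested genes, 55 were lower and 3 higher with TSZ, 9 lower and 0 higher with TSZ+Nec-1s, and 0 lower or higher with TNFα.

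Regulators of GTPases, the cytoskeleton and trafficking were 19 members with 8 called lower with TNFα. PPFIBP2, a liprin of cell adhesion sites, was at 244, 245 and 259 in DMSO, 89.7, 121 and 132 with TNFα, 28.6, 36.1 and 41.0 with TSZ and 60.8, 67.4 and 90.1 with TSZ+Nec-1s. Its groups were separate except for TNFα and TSZ+Nec-1s, and TNFα gave -1.14 (SE 0.17, adjusted p = 0.0011). ANKS4B, a scaffold that links the microvilli of the intestinal brush border, was at 130.4, 138 and 149 in DMSO, 57.7, 64.5 and 71.1 with TNFα, 12.4, 22.2 and 26.2 with TSZ and 37.3, 47.4 and 52.3 with TSZ+Nec-1s. Its 4 groups were all apart, with -1.11 (SE 0.18, adjusted p = 0.0026) for TNFα, and it overlaps the opposite-strand gene CRYM by 14977 bases. NGEF, a guanine nucleotide exchange factor, was at 41.1% with TSZ and 39.1% with TSZ+Nec-1s, values that overlapped (log2 -0.72, SE 0.18, adjusted p = 0.042 for TNFα, called in 8 of the 20 alternative settings). The endocytic adaptor EPN3 (log2 -0.73, SE 0.14, adjusted p = 0.0066), the microtubule regulator DPYSL2 (log2 -0.89, SE 0.19, adjusted p = 0.017) and the scaffold IQGAP2 (log2 -0.87, SE 0.21, adjusted p = 0.033) were also lower with TNFα. So were RHOBTB2, a BTB domain protein (log2 -0.67, SE 0.16, adjusted p = 0.036), and GRTP1, a TBC domain protein (log2 -0.57, SE 0.12, adjusted p = 0.017). RHOBTB2 was called in 8 of the 20 alternative settings. TUBA4A, an alpha tubulin and the member with the second-highest level, was at 88.6% and did not pass.

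The ubiquitin pathway and cell death group had 7 members and none called lower with TNFα, beside 35.7% of all members. DFFB, the nuclease that cuts DNA in apoptosis, was at 210.2, 233 and 233 in DMSO and 191, 209 and 216 with TNFα, 91.0% of the control, while its TSZ mean was at 27.7%. The mitochondrial deubiquitinase USP30 stood at 22.1% with TSZ and 67.2% with TNFα, and KLHL3, an adaptor of a cullin ubiquitin ligase, at 28.4% and 71.7%. FAM63A, a deubiquitinase, and FAM105A, related to the linear deubiquitinase OTULIN, were at 76.5% and 60.1%. None of the 40 IAP, TNF receptor and NF-κB genes, 25 interferon response genes or 17 immediate early genes with a DMSO mean of at least 50 was a member. Of all genes of that level 1.45% were members, and at this share lists of such sizes can hold none. With TNFα 16 of 43, 8 of 36 and 10 of 21 of those tested were higher and none was lower, beside 3.12% and 1.08% of all genes.

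Metabolic and glycan enzymes (15 members) had 5 called lower with TNFα, at medians of 38.6%, 56.5% and 70.2% with TSZ, TSZ+Nec-1s and TNFα. B4GAT1, a glucuronyltransferase of dystroglycan glycosylation, was at 183, 197 and 215 in DMSO, 132, 137 and 142 with TNFα, 23.3, 27.4 and 29.3 with TSZ and 116, 119 and 135 with TSZ+Nec-1s. TSZ+Nec-1s was 4.63 times TSZ and its values overlapped those of TNFα (log2 -0.53, SE 0.12, adjusted p = 0.027 for TNFα). ARSE, an arylsulfatase, was at 47.4% with TSZ and 45.8% with TSZ+Nec-1s, with overlapping libraries. PSPH of serine synthesis (log2 -0.55, SE 0.14, adjusted p = 0.042) and the xylose phosphatase PXYLP1 (log2 -0.62, SE 0.14, adjusted p = 0.03) were lower with TNFα, in 7 and 9 of the 20 alternative settings as well. The methyltransferase-like METTL7B (log2 -0.61, SE 0.14, adjusted p = 0.023) and the prenylcysteine oxidase PCYOX1 (log2 -0.71, SE 0.17, adjusted p = 0.033) were lower too, whereas ALAD of haem synthesis (log2 -0.50, SE 0.15, adjusted p = 0.097) and the sulfite oxidase SUOX (log2 -0.39, SE 0.16, adjusted p = 0.24) did not pass.

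The 9 noncoding RNAs and pseudogenes had 3 called lower with TNFα, at medians of 28.001%, 58.7% and 62.6% of DMSO with TSZ, TSZ+Nec-1s and TNFα. COLCA1, whose promoter is printed above, is annotated as a long noncoding RNA of the colorectal cancer risk locus on chromosome 11 and had the largest fall with TNFα of all members. It was at 43.8, 62.0 and 67.5 in DMSO, 12.5, 13.0 and 14.02 with TNFα, 8.33, 12.2 and 14.7 with TSZ and 13.1, 13.4 and 17.4 with TSZ+Nec-1s. TNFα alone left 22.8% of DMSO, TSZ 20.3% and TSZ+Nec-1s 25.3%, and the 3 treated groups overlapped, with a log2 fold change of -2.08 (SE 0.27, adjusted p = 0.00042) for TNFα. COLCA2, counted above among the factors, lies on the opposite strand over 6953 bases and was at 54.7% of DMSO (log2 -0.92, SE 0.27, adjusted p = 0.081).

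HOTTIP, a long noncoding RNA at the end of the HOXA cluster, was at 177, 213 and 239 in DMSO, 119.6, 125 and 142 with TNFα, 22.6, 36.9 and 42.2 with TSZ and 115, 125 and 130.2 with TSZ+Nec-1s and was lower with TNFα (log2 -0.69, SE 0.16, adjusted p = 0.032, called in 10 of the 20 alternative settings). It overlaps HOXA13 on the opposite strand by 1517 bases. LOC100506127 was lower too (log2 -0.69, SE 0.17, adjusted p = 0.044, in 7 of the 20), and MNX1-AS1, ASB16-AS1 and CCDC183-AS1, all named as antisense RNAs, were at 81.3%, 77.1% and 62.6% and did not pass. Over all members, 34 overlapped another measured gene and 25 of these did so on the opposite strand.

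Of the 25 members with another or no assigned role, 6 were called lower with TNFα. PRR15L had the lowest ratio of TSZ+Nec-1s to DMSO means, 20.9%, with 163, 204 and 217 in DMSO, 72.2, 86.9 and 98.1 with TNFα, 11.9, 15.5 and 26.0 with TSZ and 23.1, 42.7 and 56.4 with TSZ+Nec-1s (log2 -1.19, SE 0.23, adjusted p = 0.0087 for TNFα). RBBP8NL was at 16.1%, 23.3% and 46.5% with TSZ, TSZ+Nec-1s and TNFα (log2 -1.07, SE 0.20, adjusted p = 0.0062), and KLHDC7A at 30.3%, 36.5% and 45.9% (log2 -1.11, SE 0.17, adjusted p = 0.0019). GRAMD1B, a carrier of cholesterol between membranes with a high level, was at 77.1% and did not pass (adjusted p = 0.059).

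**Figure D3:**
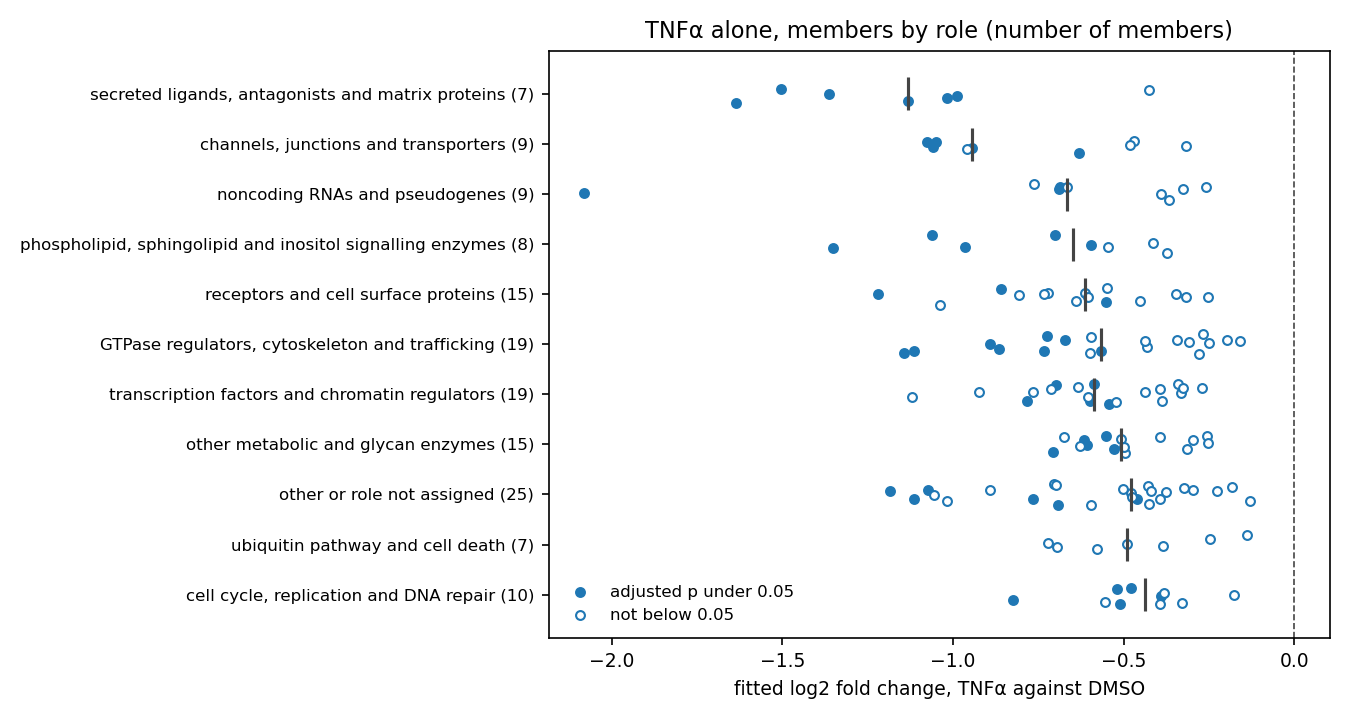
Fitted log2 fold change of TNFα against DMSO (horizontal axis) for each member, by role group with its number of members (vertical axis). Filled points passed an adjusted p under 0.05, open points did not, vertical bars are the group medians and vertical jitter has no meaning. All 143 points lie below 0, from -2.08 for COLCA1 to -0.13 for PASK.

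**Figure D4:**
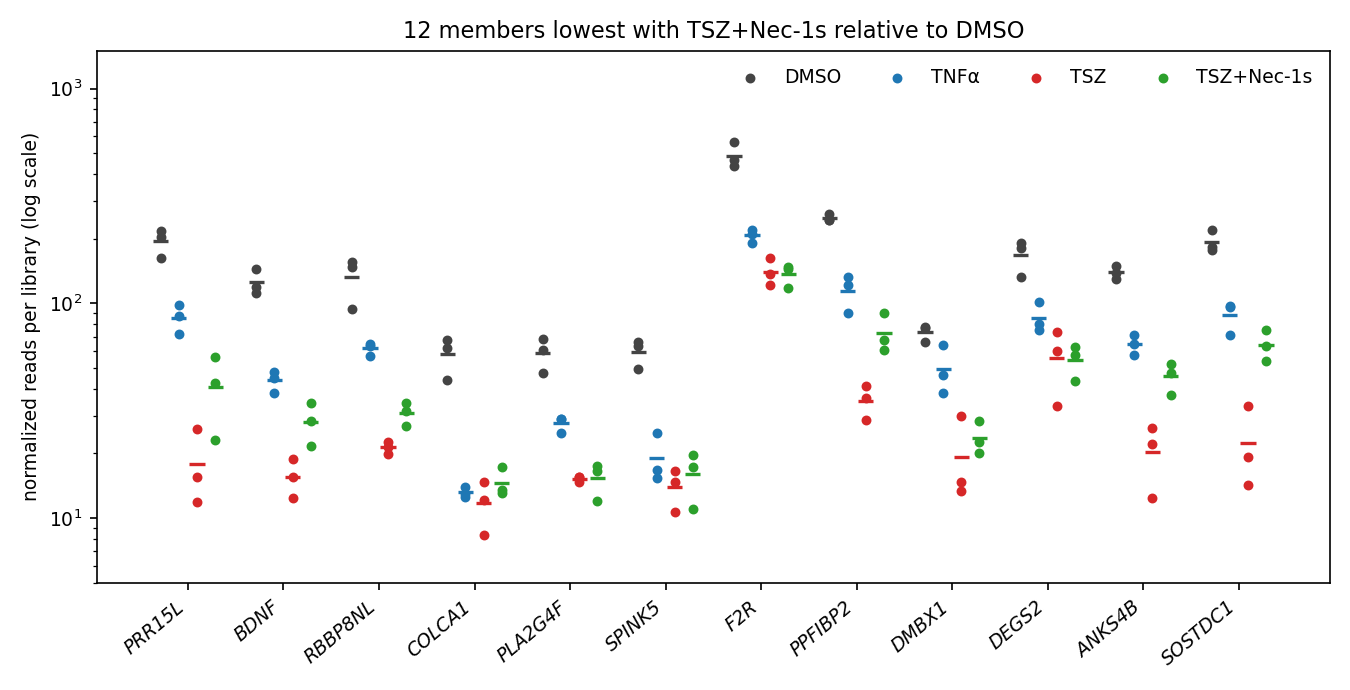
Normalized reads in each library (log scale, vertical axis) for the 12 members with the lowest ratio of TSZ+Nec-1s to DMSO means (horizontal axis), in DMSO, TNFα, TSZ and TSZ+Nec-1s. Points are libraries, 3 per group, and bars are their means. TNFα lies below DMSO for all 12 genes, and TSZ+Nec-1s overlaps TSZ for COLCA1, PLA2G4F, SPINK5, F2R and DEGS2 among others.

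With Nec-1s added to TSZ, some members had means close to those with TSZ and others were partly back towards DMSO. Both means enter the rule, so these values are descriptions. The ratio of TSZ+Nec-1s to TSZ means had a median of 1.56 and ran from 0.803 for STEAP4 to 6.10 for SLITRK6. It was between 0.8 and 1.25 in 33 members and over 2 in 37. TSZ+Nec-1s was below TSZ in the means of 7 members, F2R, DEGS2, STEAP4, NGEF, FAM131B, ARSE and ELF5. The libraries of the 2 groups overlapped in 47 members (32.9%), which with 3 libraries each does not show an unchanged level. All TSZ+Nec-1s libraries were above all TSZ libraries in 96 (67.1%), beside 28% of all genes tested. All were below in 0 members, beside 29.3%. At the other end were KCNE3, CDKN2C, B4GAT1 and HOTTIP, with ratios of 5.72, 5.28, 4.63 and 3.64.

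**Figure D5:**
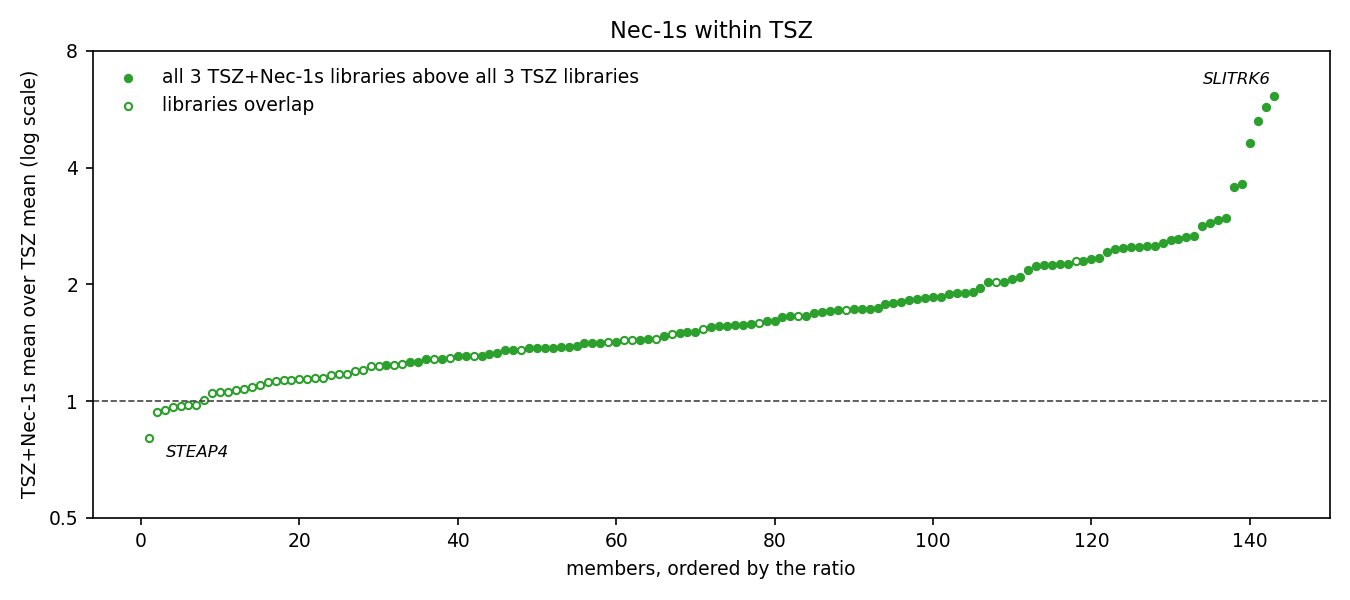
Ratio of the TSZ+Nec-1s mean to the TSZ mean (log scale, vertical axis) for the 143 members in the order of the ratio (horizontal axis). Filled points are the 96 members whose 3 TSZ+Nec-1s libraries all lie above the 3 TSZ libraries, open points the 47 whose libraries overlap. The ratio runs from 0.803 (STEAP4) to 6.10 (SLITRK6).

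TSZ+Nec-1s contains TNFα, so its levels were set beside those of TNFα alone, again as a description. The rule chose genes low with TSZ+Nec-1s and set no limit on TNFα, which by itself favours ratios of TSZ+Nec-1s to TNFα below 1. The TSZ+Nec-1s mean was below the TNFα mean in all but 14 members, with a median ratio of 0.783, where the median over all genes tested was 0.979. All TNFα libraries were above all TSZ+Nec-1s libraries in 79 members (55.2%, beside 21.4% of all genes) and all below them in 0 (beside 21.9%). The TNFα mean was at most 0.5 times DMSO in 22 members, among them BDNF, COLCA1, SPINK5, F2R, KCNE3 and PLD1, and above 0.8 times DMSO in 21. Over all genes tested, the lower quartile was 86.5% of DMSO. Some of the 22 rested on DMSO library b. Without it, SLC40A1 was at 57.2%, SLITRK6 at 64.8%, C18orf54 at 74.2%, LMBRD2 at 78.1% and SLC16A7 at 78.4% of DMSO with TNFα.

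The transcripts of the members had a median GC content of 51.0% and a median length of 3985 bases, against 48.4% and 3257 for all tested genes with an annotated transcript, and a median of 8 exons against 9. The members lay on 23 chromosomes, 20 of them on chromosome 1. Besides COLCA1 with COLCA2 and HOXC6 with HOXC4, LMBRD2 and SKP2 were a head-to-head pair on chromosome 5 with 102 bases between them, and IQGAP2 and F2R lay 7994 bases apart on chromosome 5. LMBRD2 was at 44.4% of DMSO with TNFα and SKP2 at 69.6%, with DMSO values of 28.9, 37.8 and 109 and 874, 875 and 1166.

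At the limits of the rule the genes formed no gap. ELF5, SERTAD4 and CELSR2 were just inside the DMSO limit at 51.7, 52.1 and 52.1 normalized reads, and DIP2C, IGSF10 and PPP1R3E just outside at 49.6, 49.3 and 49.0. SLC44A3, TCEAL8 and DCAKD were just inside the TSZ limit at 49.996%, 49.7% and 49.7% of DMSO, and IFT172, CACNG4 and CAMK2G just outside at 50.02%, 50.2% and 50.3%. GOLGA2P5, DCAKD and JAM3 were just inside the TSZ+Nec-1s limit at 64.8% each, and SNHG4, HFE and CLCN5 just outside at 65.0025%, 65.03% and 65.04%. Scaled to total reads instead of size factors, the median log2 fold change of all tested genes between TSZ and DMSO was -0.43 in place of -0.02, and 319 genes met the rule, among them all 143 members.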

How the data were processed

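HT-29 RNA was sequenced in 12 libraries, 3 in each of the groups DMSO, TNFα, TSZ and TSZ+Nec-1s, and samples were grouped by their titles. The study's methods give Trizol and a VAHTS kit, whereas the labels name RNAiso Plus and a kit of the NEB Ultra series. Reads were aligned by the authors with STAR (hg38), counted per gene with HTSeq (intersection-strict, no strand) and normalized with DESeq. The 6 deposited tables compare pairs of groups, and the signal used here is the authors' mean of normalized counts in a group. Their other columns hold the authors' fold changes, log2 fold changes, p-values and adjusted p-values and were not used.

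A group mean is the mean of 3 whole counts, each divided by its library's size factor, so reads per library were solved wherever 1 solution existed, which held for 15839 of the 15850 genes above 0 in DMSO. The numbers were 15639 of 15664 for TNFα, 15774 of 15798 for TSZ and 15722 of 15733 for TSZ+Nec-1s. In libraries simulated from the TNFα group, all 15221 genes above 0 were solved with their true reads. Size factors recomputed from the reads differed by at most 0.00118. limma 3.58.1 in R 4.3.3 was fitted with voom precision weights to the 12 libraries. It tested the 11732 genes whose 4 group means averaged 10 or more, with Benjamini-Hochberg adjustment over all of them. Count models were not run, since the deposited values are group means from which the counts were recovered. All 143 members passed the filter. On simulated TNFα and DMSO libraries of 11681 genes, the fit called 72% of genes lowered 2-fold, 20% of genes lowered 1.5-fold and 3 of 11481 unchanged genes. The simulated libraries had the same dispersion for all genes and none of the GC trends of the real ones, so these rates need not hold there. Members near the DMSO limit rest on about 50 reads per library. Symbols were matched to GENCODE v44 (141 of 143 members), and promoters came from a RefSeq table. Python 3.11.15 with numpy 2.4.6, pandas 2.3.3, numba 0.67.0 and matplotlib 3.10.9 was used for the other steps.

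The members, the gene lists and the role groups were chosen with earlier results of these data known. Members were named by a rule: the 12 with the lowest TSZ+Nec-1s to DMSO ratio, the 5 highest DMSO means, the 8 lowest and 5 highest TNFα changes among those called, up to 4 of each gene list, those nearest the limits, and the 5 lowest and 5 highest ratios of TSZ+Nec-1s to TSZ, 70 in all. Others were named after their values were seen, to complete a role group. Alternatives were another scaling, removal of GC trends, other filters and pseudocounts of 1 and 5, a fit of 2 groups only, and each library left out.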

Additional observations from a re-analysis of the deposited data

How the results depend on the processing

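No paired analysis was possible because the recovered libraries carry no replicate numbers. The count of members lower with TNFα (51) was 107 after removal of each library's GC trend and 15 with only the DMSO and TNFα libraries, and ran from 22 to 63 when 1 library was left out. It was 72 with scaling to total reads (1.94% of all genes), 56 with a trimmed-mean scaling (1.21%), 41 with every gene above 0 (0.632%), 47 of 119 tested with a mean of at least 50 (1.05%), and 36 and 37 with pseudocounts of 1 and 5 (0.801% and 0.904%), beside 1.08% as reported, and no member was higher in any of these. Fewer residual degrees of freedom go with leaving libraries out, and the cause of the other differences was not tested. Of the members, 14 were called lower in every setting in which they were tested: ADAMTS6, ANKS4B, BDNF, COLCA1, F2R, GATA2, KCNE3, KLHDC7A, LMO4, LOXL1, PLD1, PPFIBP2, SOSTDC1 and SPINK5. The median log2 fold change of the members with TNFα stayed between -0.52 and -0.62. With TSZ it was -1.54 and -1.95 when scaled to total reads. The rule took 319 genes with scaling to total reads, 155 with trimmed-mean scaling, 123 with the GC trend removed (of which 105 were members), 49 with a TSZ+Nec-1s limit of 0.5, 106 with a DMSO mean of at least 100, and 131 to 186 with 1 library left out. Of 1386 values for 70 named members under these settings, 155 lost and 57 gained their call, and none changed direction. Depth limits the members with few reads, such as COLCA1, whose TNFα libraries rest on 12.5 to 14.02 normalized reads.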
